A study of Homo sapiens with 17 samples.

Results

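The nuclear genes of the mitochondrial ribosomal proteins were taken as all genes whose symbol is MRPL or MRPS followed by a number and, for some, a letter from A to C. This rule found 78 of the 41040 named genes, and 76 of them were among the 16891 genes with enough counts to be tested. They were followed in bulk RNA-seq of IMR-90 cells, a fibroblast line derived from human fetal lung, in 3 groups. Week 0 cells were untreated (n = 5 libraries). Week 1 and week 4 cells had received 20 µM etoposide for 48 h and were then kept without the drug until harvest (n = 6 libraries each). Etoposide traps topoisomerase II on cut DNA, which breaks both strands, and is used to make cells senescent. All libraries come from the same line, and no untreated cells were taken later than week 0, so treatment and time in culture cannot be told apart in any comparison with week 0. Whether replicates were separate cultures is not in the labels, and p-values therefore reflect variation among libraries that may be technical.

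Mitochondria have a ribosome of their own, built from a small and a large subunit, which translates the few messenger RNAs transcribed from mitochondrial DNA into core subunits of the respiratory chain and ATP synthase. Its ribosomal RNAs come from mitochondrial DNA, while all of its proteins are encoded in the nucleus, made in the cytosol and imported. Some of the proteins are homologues of bacterial ribosomal proteins and others are specific to mitochondria, and loss of function of several members is known to impair the respiratory chain.

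Counts over named genes totalled 77.2 to 102.8 M in each of the 17 libraries. Summed fibroblast markers were 35945 ± 2916, 49284 ± 1090 and 64575 ± 1197 CPM (counts relative to the TMM-scaled library size, as mean ± SD) at weeks 0, 1 and 4. Summed over 8 epithelial markers the level was 62.1, 260.2 and 214 CPM at weeks 0, 1 and 4 (58.7 to 66.3, 243 to 282 and 201 to 227 CPM over libraries). Most of it came from the keratins KRT8 (14.4, 43.4 and 48.2 CPM) and KRT18 (45.7, 191.7 and 153.6 CPM). KRT19 averaged 1.72, 24.5 and 11.8 CPM and CDH1 0.00408, 0.181 and 0.0363 CPM, so both were higher after week 0. EPCAM averaged 0.315, 0.319 and 0.185 CPM, and KRT5, KRT14 and SFTPC were at 0 at week 0 and at most 0.0459 CPM later. Over 7 endothelial markers the sum was 91.2, 63.8 and 80.1 CPM (77.9 to 96.5, 61.5 to 66.1 and 65.2 to 88.7 CPM over libraries), most of it from TEK. PECAM1 averaged 0.00204, 0.581 and 0.141 CPM at weeks 0, 1 and 4, while KDR averaged 4.355, 0.2385 and 0.4155 CPM. TIE1 averaged 2.50, 1.71 and 9.19 CPM and was highest at week 4. Over 7 leukocyte markers the sum was 0.303, 0.657 and 0.613 CPM (0.245 to 0.461, 0.602 to 0.788 and 0.290 to 0.944 CPM over libraries). Among them CD14 averaged 0.205, 0.258 and 0.448 CPM and was highest at week 4. PTPRC averaged 0.0139, 0.237 and 0.0751 CPM, and CD3E was at 0 at weeks 0 and 4. The part of these markers in the members' changes was not tested. Week 0 replicates 1 and 4 stood apart from week 0 replicates 3, 5 and 6, with higher levels of both mitochondrial and cytosolic ribosomal protein genes, so most comparisons with week 0 are also given without these 2 libraries. The deposited tables of week 0 replicates 5 and 6 and week 1 replicates 1 and 2 also held gene lengths. Values within this class of tables are given beside the pooled ones for the counts of members and for some single genes.

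Most mitochondrial ribosomal protein genes were lower after etoposide, at week 1 and again at week 4. At week 1, 67 of the 76 tested members were lower than at week 0, 1 (MRPL17) was higher and 8 did not pass the test (edgeR quasi-likelihood test, Benjamini-Hochberg adjusted p under 0.05 over all tested genes). Over all tested genes, 34.0% were called lower, 32.9% higher and 66.9% in either direction in that comparison. The members' median log2 fold change was -0.52, beside -0.02 for all tested genes, and single members ran from -1.22 to 0.33. At week 4, 72 members were lower than at week 0 and 1 was higher, where 33.7% of all tested genes were called lower, 33.9% higher and 67.6% in either direction. The median log2 fold change of the members was then -0.71, beside 0 for all tested genes, with a range of -1.31 to 0.25. The decreases were moderate, and 8 members fell by more than 2-fold at week 4. Without week 0 replicates 1 and 4 none fell as far, and the lowest log2 fold change at week 4 was -0.91.

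Between weeks 4 and 1 the changes were smaller. In that comparison 23 members were lower at week 4, 1 (MRPS30) was higher and 52 did not pass the test, where 18.6% of all tested genes were called lower, 21.8% higher and 40.5% in either direction. The median log2 fold change of the members was -0.14, beside 0.01 for all tested genes. The count of 23 was 12 without week 1 replicate 4 and 15 without week 4 replicate 5 or replicate 6, and 45 in a fit of these 2 groups alone. Over all tested genes, calls in either direction numbered 6835, 6218 to 7308 with single libraries left out, and 5624 to 8358 under other alternatives. By gene, 47 members were lower at both times without a call between them, and 19 were lower at both times and lower again at week 4 than at week 1. The remainder were MRPL36, MRPL41, MRPL52 and MRPL55, lower than week 0 at week 4 alone and lower at week 4 than at week 1, MRPL2, lower at week 4 alone, MRPS30, lower at both times and higher at week 4 than at week 1, MRPL17, higher at both times, and MRPS5, MRPS25 and MRPL12, which passed no test.

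Without week 0 replicates 1 and 4, 53 members were lower at week 1 and 69 at week 4, with median log2 fold changes of -0.34 and -0.48. Against week 1, 42 members were then lower at week 4 and 2 were higher, with a median of -0.14, since the estimate of spread is shared by the 3 groups. Within the tables that held gene lengths, which allow the week 1 comparison only, 46 members were lower and 4 higher, with a median of -0.30. Within the other tables, week 1 had 68 lower members and week 4 had 71, with medians of -0.67 and -0.83. Their week 0 libraries are replicates 1, 3 and 4, and those of the tables with gene lengths are replicates 5 and 6. The class of tables and the split of the week 0 libraries therefore overlap only in part. Replicate 3 shares its class with replicates 1 and 4, where the median member lay at log2 levels of 0.37 and 0.25 relative to the week 0 mean. Its own value, -0.10, lay nearer those of replicates 5 and 6 (-0.23 and -0.26). Which of the class and the split goes with the smaller decreases was not tested. The decreases were thus smaller against the week 0 libraries with low member levels. Medians had the same direction in each of these subsets, which share libraries and are not independent. Shares of all tested genes called lower in these fits are not given here. Under alternatives other than single libraries left out, calls in either direction over all genes numbered 8231 to 12315 at week 1 (11305 in the main fit). At week 4 they numbered 8261 to 11920 (11414 in the main fit).

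Library by library, the median member of week 0 lay at log2 levels of 0.37, -0.10, 0.25, -0.23 and -0.26 relative to the week 0 mean, in replicates 1, 3, 4, 5 and 6. In the week 1 libraries this median lay between -0.56 and -0.46, and in the week 4 libraries between -0.72 and -0.64. All treated libraries therefore lay below all untreated ones, and all week 4 libraries below all week 1 libraries. The median of all tested genes lay between -0.02 and 0.04 in every library. TMM scaling largely sets that median near 0, so it is a reference and not a separate result. Gene by gene, 45 of 76 members were called lower at week 1 with no library overlapping week 0, where 23.9% of all tested genes were, and 62 at week 4, where 23.6% of all tested genes were. Against week 0 replicates 3, 5 and 6 alone, all libraries of the treated group lay below for 47 members at week 1 and 64 at week 4, which is 61.8% and 84.2% of members beside 29.9% and 29.4% of all tested genes.

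**Figure D1:**
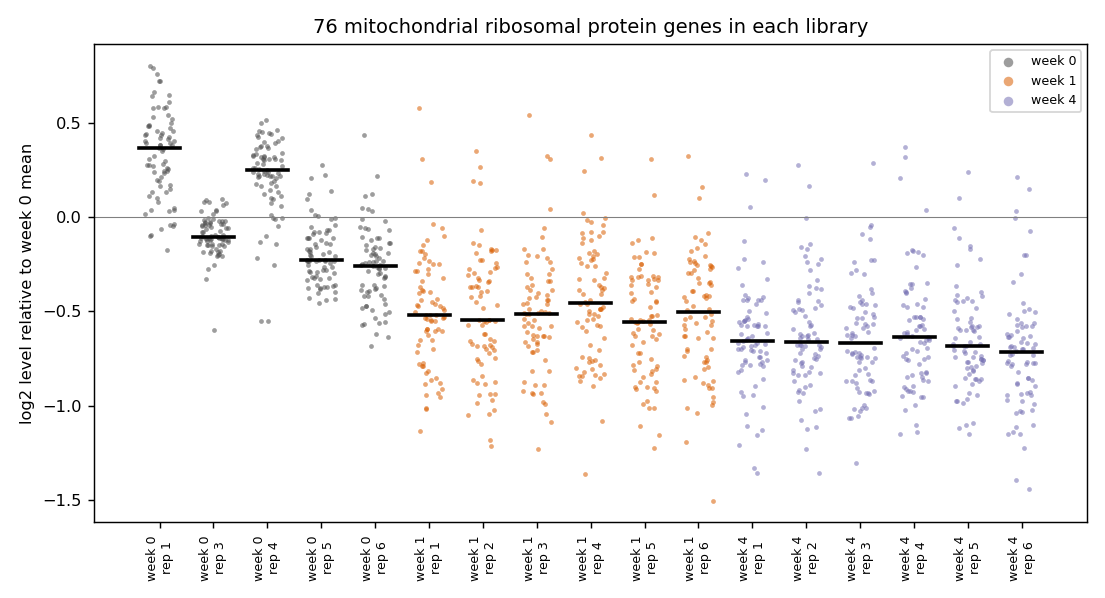
Level of each of the 76 tested mitochondrial ribosomal protein genes (dots) in every library, as the log2 difference from that gene's week 0 mean, with the median member as a bar. The bars of week 0 replicates 1 and 4 lie at 0.37 and 0.25, those of the other week 0 libraries between -0.26 and -0.10, those of week 1 between -0.56 and -0.46 and those of week 4 between -0.72 and -0.64.

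The untreated libraries were also the most uneven ones. The median coefficient of variation of a member was 20.6% at week 0, 6.07% at week 1 and 6.10% at week 4, beside 13.1%, 8.20% and 8.44% for all tested genes. The fit shares 1 estimate of spread per gene over the 3 groups. Standard errors and p-values of members against week 0 are therefore likely too small. Between weeks 4 and 1 they are likely too large, so a missing call there does not show that a member stayed level. More members were lower in that comparison without week 0 replicates 1 and 4, as given above. In 59 of 76 members both week 0 replicates 1 and 4 were above week 0 replicates 3, 5 and 6. The summed level of 77 cytosolic ribosomal protein genes, which build the ribosome outside mitochondria, was 56300 and 50882 CPM in week 0 replicates 1 and 4 and 30728 to 37997 CPM in replicates 3, 5 and 6. That sum lay between 36027 and 40632 CPM at week 1 and between 37977 and 43606 CPM at week 4, so its treated libraries fell inside the week 0 range. What set the 2 week 0 libraries apart was not tested.

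Summed over all 78 members, the level was 2756 ± 558, 1910 ± 57.0 and 1718 ± 39.5 CPM at weeks 0, 1 and 4 (SD, n = 5, 6 and 6), and 2360 ± 156 CPM in week 0 replicates 3, 5 and 6 (SD, n = 3). The 29 MRPS names summed to 891 ± 172, 588 ± 16.5 and 534 ± 9.5 CPM at the 3 times, and the 49 MRPL names to 1865 ± 386, 1322 ± 41.6 and 1184 ± 30.6 CPM. In week 0 replicates 3, 5 and 6 these sums were 768 ± 45.0 CPM for MRPS names and 1591 ± 111 CPM for MRPL names. In bulk RNA, fewer cells that express a gene and less RNA per cell cannot be told apart, and CPM are shares of each library. Cell cycle markers moved at the same time, with sums of 1589 ± 98.3, 194 ± 8.35 and 243 ± 25 CPM at weeks 0, 1 and 4, and their part in the members' decrease was not tested.

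Per kilobase of gene length, the median MRPL-named member stood at 14.5, 9.80 and 9.17 CPM per kb at weeks 0, 1 and 4 (48 genes). The median MRPS-named member stood at 7.83, 4.77 and 4.32 CPM per kb (28 genes). The MRPS names include MRPS18A and MRPS30, which are placed in the large subunit, and MRPS36, which is not a ribosomal protein. All tested genes had medians of 2.17, 1.95 and 2.05 CPM per kb. MRPL51, a mitochondrion-specific protein of the large subunit, was the highest member at each time, at 74.7, 47.5 and 44.0 CPM per kb. MRPS5, the homologue of bacterial S5 near the entry of the messenger RNA channel, was the lowest tested member at weeks 0 and 4, at 0.259 and 0.262 CPM per kb. That rank depends on its deposited length of 13738 bases, where GENCODE v29 gives 6719 exon bases, and MRPL38 stood at 0.452 and 0.287 CPM per kb. Deposited lengths of MRPS22, MRPS25 and MRPS27 (16385, 18309 and 19524 bases) also exceed their GENCODE exon bases (5382, 5383 and 6511). So does that of MRPL19 (8947 bases, beside 4601). Such lengths lower the values per kilobase, and the medians of MRPL and MRPS names were therefore not compared.

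By subunit and origin, the decreases were spread over all classes. Of 16 small-subunit proteins with a bacterial homologue, 15 were lower at week 1 and 15 at week 4, with median log2 fold changes of -0.53 and -0.74. Among 9 tested mitochondrion-specific proteins of the small subunit 8 were lower at each time, with medians of -0.57 and -0.65. For the large subunit, 25 of 30 proteins with a bacterial homologue were lower at week 1 and 28 at week 4, with 1 higher at both, and the medians were -0.49 and -0.73. The 18 tested mitochondrion-specific proteins of the large subunit included 16 lower at week 1 and 18 at week 4, with medians of -0.53 and -0.72. With week 0 replicates 1 and 4 left out, the lower members at weeks 1 and 4 numbered 12 and 14 of the small-subunit proteins with a bacterial homologue, with medians of -0.44 and -0.62, and 7 and 8 of the mitochondrion-specific ones, with medians of -0.34 and -0.51. In the large subunit they then numbered 20 and 26, with medians of -0.30 and -0.43, and 11 and 18, with medians of -0.33 and -0.47. In the main fit 34.0% of all tested genes were called lower at week 1 and 33.7% at week 4. No difference between these classes was tested.

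**Figure D2:**
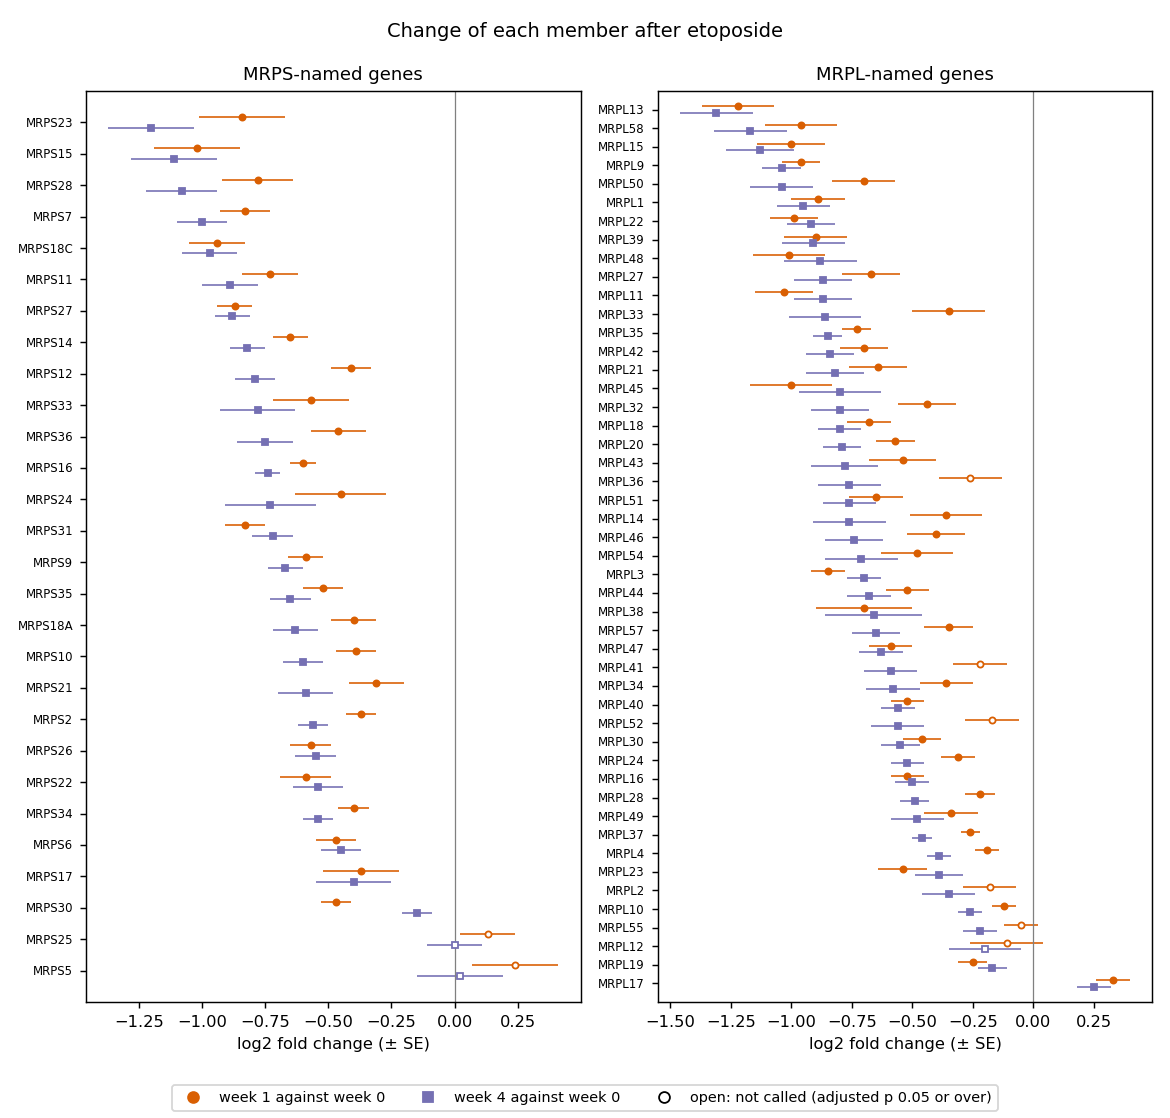
Log2 fold change ± SE of each tested member at week 1 (circles) and week 4 (squares) against week 0, for MRPS-named genes on the left and MRPL-named genes on the right, ordered by the week 4 value, with open symbols where the adjusted p was 0.05 or over. MRPL13 has the lowest values, -1.22 at week 1 and -1.31 at week 4, and MRPL17 is the only member with filled symbols above 0.

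The deepest decrease was that of MRPL13, the homologue of bacterial L13 in the large subunit. MRPL13 had 85.7, 47.0, 72.5, 41.7 and 37.9 CPM in the week 0 libraries. Its week 1 libraries held 23.1 to 25.5 CPM (median 24.2) and its week 4 libraries 20.5 to 24.3 CPM (median 23.2). All treated libraries lay below the lowest untreated one and the week 1 and week 4 libraries overlapped. The log2 fold change of MRPL13 was -1.22 ± 0.15 (SE) at week 1 (adjusted p = 1.5e-07) and -1.31 ± 0.15 at week 4 (adjusted p = 5.6e-08), or 2.49-fold lower at week 4. Without week 0 replicates 1 and 4 these values were -0.79 and -0.88.

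MRPL58, formerly ICT1, is a peptidyl-tRNA hydrolase that rescues stalled ribosomes and is also built into the large subunit. MRPL58 had 47.1, 25.2, 36.1, 20.8 and 21.4 CPM at week 0, and medians of 15.5 CPM at week 1 (14.3 to 16.8) and 13.4 CPM at week 4 (11.4 to 15.0). For MRPL58 the log2 fold change was -0.96 ± 0.15 at week 1 (adjusted p = 9.3e-06) and -1.17 ± 0.15 at week 4 (adjusted p = 6.1e-07), and -0.54 and -0.75 without week 0 replicates 1 and 4. As for MRPL13, no treated library reached the lowest untreated one.

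MRPL15, the homologue of bacterial L15, had 100.8, 59.9, 90.7, 48.9 and 47.0 CPM at week 0, medians of 34.6 CPM at week 1 and 31.3 CPM at week 4, and a highest treated library of 37.1 CPM. Its log2 fold change was -1.0 ± 0.14 at week 1 and -1.13 ± 0.14 at week 4 (adjusted p = 1.8e-06 and 3.0e-07), and -0.58 and -0.72 without week 0 replicates 1 and 4. The groups did not overlap at either time. MRPL9 and MRPL50 of the large subunit and MRPS28 of the small subunit also fell by more than 2-fold at week 4, with log2 fold changes of -1.04 for MRPL9, -1.04 for MRPL50 and -1.08 for MRPS28. These were -0.87, -0.71 and -0.91 without those 2 libraries.

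MRPL11 and MRPL48 were lowest at week 1. MRPL11, the homologue of bacterial L11 at the base of the stalk, had 47.9, 33.3, 43.8, 27.4 and 24.0 CPM at week 0, 16.4 to 18.3 CPM (median 17.4) at week 1 and 17.4 to 20.7 CPM (median 19.8) at week 4. Its log2 fold change was -1.03 ± 0.12 at week 1 and -0.87 ± 0.12 at week 4 (adjusted p = 1.8e-07 and 2.0e-06), and -0.71 and -0.55 without week 0 replicates 1 and 4. MRPL48, a mitochondrion-specific protein of the large subunit, had 33.6, 20.2, 30.8, 16.6 and 16.1 CPM at week 0, 9.64 to 12.5 CPM at week 1 and 12 to 13.5 CPM at week 4. For MRPL48 the log2 fold change was -1.01 ± 0.15 at week 1 and -0.88 ± 0.15 at week 4 (adjusted p = 2.3e-06 and 1.5e-05), and -0.61 and -0.47 without those 2 libraries. Both genes stayed below every untreated library, and neither passed the test between weeks 4 and 1.

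In the small subunit, MRPS23, a mitochondrion-specific protein, had 101.2, 51.9, 79.5, 43.0 and 37.6 CPM at week 0, 31.8 to 37.4 CPM (median 35.8) at week 1 and 26.2 to 28.7 CPM (median 27.1) at week 4. All week 4 libraries lay below all week 1 libraries, which lay just below the lowest untreated library. The log2 fold change of MRPS23 was -0.84 ± 0.17 at week 1 (adjusted p = 1.3e-04) and -1.20 ± 0.17 at week 4 (adjusted p = 1.6e-06), and -0.34 and -0.70 without week 0 replicates 1 and 4. The difference between weeks 4 and 1, -0.36 ± 0.16, had an adjusted p of 0.08. Without week 0 replicates 1 and 4 it was again -0.36 and was called lower (adjusted p = 1.9e-05).

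MRPS15 and MRPS12 are homologues of bacterial small-subunit proteins, S15, which binds the ribosomal RNA early in assembly in bacteria, and S12, which sits at the decoding centre. MRPS15 had 125.1, 64.6, 95, 55 and 44.7 CPM at week 0, 36.1 to 40.7 CPM (median 37.4) at week 1 and 32.7 to 38 CPM (median 35.4) at week 4, with no overlap with week 0. The log2 fold change of MRPS15 was -1.02 ± 0.17 and -1.11 ± 0.17 at weeks 1 and 4 (adjusted p = 1.2e-05 and 4.2e-06), and -0.53 and -0.62 without week 0 replicates 1 and 4.

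MRPS12 fell in steps. MRPS12 had 37.8, 29.9, 34.5, 27 and 26.0 CPM at week 0, 21.1 to 26.8 CPM (median 22.8) at week 1 and 17.2 to 18.7 CPM (median 18) at week 4. At week 1 the highest library overlapped week 0, while the week 4 libraries lay below all others. The log2 fold change was -0.41 ± 0.08 at week 1, -0.79 ± 0.08 at week 4 and -0.38 ± 0.08 between weeks 4 and 1 (adjusted p = 1.2e-04, 1.4e-08 and 4.1e-04). Leaving out week 0 replicates 1 and 4 gave -0.25 and -0.63 against week 0. Within the tables that held gene lengths the week 1 value was -0.18, with an adjusted p of 0.05.

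The stalk recruits translation factors to the large subunit. MRPL12, the homologue of bacterial L7/L12 and the moving part of the stalk, had 9.15, 6.14, 5.59, 8.10 and 5.19 CPM at week 0, 5.28 to 7.62 CPM (median 6.36) at week 1 and 4.24 to 7.72 CPM (median 5.89) at week 4. The groups of MRPL12 overlapped, and its log2 fold changes of -0.11 ± 0.15 and -0.20 ± 0.15 did not pass the test (adjusted p = 0.53 and 0.24), nor did those without week 0 replicates 1 and 4 (-0.03 and -0.12). In GENCODE v29, 68.2% of its exon bases are shared with an unnamed gene on the same strand, and the sources used here do not give how reads in shared bases were counted.

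MRPL10 anchors MRPL12 to the ribosome. It had 41.1, 44.7, 46.6, 40.9 and 39.2 CPM at week 0, 36.0 to 42.0 CPM (median 39.2) at week 1 and 33.5 to 37.2 CPM (median 35.6) at week 4. For MRPL10 the week 4 libraries lay below all week 0 libraries, with a log2 fold change of -0.26 ± 0.05 (adjusted p = 1.4e-04), or -0.23 without week 0 replicates 1 and 4. At week 1 its log2 fold change was -0.12 ± 0.05 (adjusted p = 0.047), and without week 0 replicates 1 and 4 it was -0.09 and was not called (adjusted p = 0.12), as in 23 of 31 alternatives. Within the tables that held gene lengths the week 1 value of MRPL10 was -0.03 (adjusted p = 0.73). MRPL53, a mitochondrion-specific neighbour of the stalk, had 1 count in 1 of 17 libraries, and 3 counts would be 0.0288 to 0.0401 CPM. In GENCODE v29, 45.2% of its exon bases are shared with CCDC142 on the same strand.

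At the exit of the peptide tunnel, MRPL45 tethers the ribosome to the inner mitochondrial membrane, MRPL23 is the homologue of bacterial L23 and MRPL44 is a mitochondrion-specific protein with a ribonuclease III fold. MRPL44 had 40.6, 31.9, 42.2, 28.4 and 26.6 CPM at week 0, 22.7 to 24.6 CPM (median 23.8) at week 1 and 20.6 to 22.2 CPM (median 21.0) at week 4. No treated library of MRPL44 reached week 0, and its log2 fold change was -0.52 ± 0.09 at week 1 and -0.68 ± 0.09 at week 4 (adjusted p = 2.4e-05 and 6.2e-07), or -0.29 and -0.46 without week 0 replicates 1 and 4.

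MRPL45 and MRPL23 were low genes. MRPL45 had 3.04, 2.39, 3.02, 1.98 and 1.58 CPM at week 0, medians of 1.24 CPM at week 1 and 1.38 CPM at week 4, and log2 fold changes of -1.0 ± 0.17 and -0.80 ± 0.17 (adjusted p = 1.7e-05 and 2.2e-04). Those of MRPL45 were -0.73 and -0.52 without week 0 replicates 1 and 4. MRPL23 had 3.50, 3.50, 3.57, 2.75 and 3.29 CPM at week 0, medians of 2.27 CPM at week 1 and 2.49 CPM at week 4, and log2 fold changes of -0.54 ± 0.10 and -0.39 ± 0.10 (adjusted p = 4.6e-05 and 0.0012). Those of MRPL23 were -0.48 and -0.33 without the same libraries. Both genes were lower at each time. Within the tables that held gene lengths, their week 1 values were -0.44 for MRPL45 and -0.24 for MRPL23, and neither was called (adjusted p = 0.13 and 0.24).

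Bacterial S18 has several human homologues. MRPS18C, in the small subunit, had 16.4, 12, 14.4, 10.7 and 10.0 CPM at week 0, 6.06 to 7.26 CPM at week 1 and 5.63 to 7.28 CPM at week 4, with log2 fold changes of -0.94 ± 0.11 and -0.97 ± 0.11 (adjusted p = 5.3e-08 and 3.7e-08), or -0.72 and -0.75 without week 0 replicates 1 and 4. MRPS18A, which is placed in the large subunit despite its name, had 17.9, 15.1, 16.5, 12.6 and 12.3 CPM at week 0, 10.1 to 12.4 CPM at week 1 and 8.34 to 10.4 CPM at week 4. For MRPS18A the log2 fold change was -0.40 ± 0.09 at week 1 and -0.63 ± 0.09 at week 4 (adjusted p = 4.3e-04 and 1.8e-06), or -0.25 and -0.48 without those libraries, and its week 1 value within the tables that held gene lengths was -0.21 (adjusted p = 0.096). The treated libraries of MRPS18C lay far below week 0, and those of MRPS18A overlapped it at week 1 alone. MRPS18B had no count in any of the 17 libraries although none of its exon bases overlap another gene in GENCODE v29, so it is listed at 0 and no level is given. In that annotation 40.2% of the exon bases of MRPS18C and 47.0% of those of MRPS18A lie opposite another gene, and the sources used here do not give the strand setting of the counting.

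A further group of members fell mainly between weeks 1 and 4. MRPL33 and MRPL36, small proteins of the large subunit with bacterial homologues, had the largest decreases between those times. MRPL33 had 72.1, 38.2, 57.5, 33.8 and 29.5 CPM at week 0, 34.0 to 39.6 CPM (median 35.8) at week 1 and 23.0 to 28.4 CPM (median 25.1) at week 4. Its log2 fold change between weeks 4 and 1 was -0.51 ± 0.15 (adjusted p = 0.0080) and that between weeks 4 and 0 was -0.86 ± 0.15 (adjusted p = 3.7e-05), or -0.42 without week 0 replicates 1 and 4. Week 1 libraries of MRPL33 overlapped week 0, with a log2 fold change of -0.35 ± 0.15 (adjusted p = 0.049) that was 0.09 without those libraries (adjusted p = 0.26), and of 31 alternatives 22 lost that call and 3 turned its sign.

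MRPL36 had 63.0, 38.7, 54.5, 32.4 and 30.0 CPM at week 0, 35.8 to 37.4 CPM (median 36.6) at week 1 and 23.0 to 28.6 CPM (median 25.6) at week 4. All week 4 libraries lay below all others. For MRPL36 the log2 fold change was -0.50 ± 0.13 between weeks 4 and 1 and -0.76 ± 0.13 between weeks 4 and 0 (adjusted p = 0.0029 and 2.8e-05), and the value between weeks 4 and 0 was -0.39 without week 0 replicates 1 and 4. Its week 1 value against week 0 was -0.26 ± 0.13 (adjusted p = 0.093), and 0.12 without those libraries (adjusted p = 0.13). It was 0.23 within the tables that held gene lengths (adjusted p = 0.0072), where MRPL36 was called higher.

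MRPL14, the homologue of bacterial L14 at the face between the subunits, and MRPL52, a mitochondrion-specific protein, were also lower at week 4 than at week 1. MRPL14 ran from 27.7 to 35.1 CPM at week 1 and from 22.4 to 24.4 CPM at week 4, with a log2 fold change of -0.40 ± 0.15 between weeks 4 and 1 (adjusted p = 0.036), a call that was lost in 9 of 30 alternatives. Without week 0 replicates 1 and 4 that value of MRPL14 was again -0.40 (adjusted p = 1.0e-05). MRPL52 ran from 38.9 to 45.9 CPM at week 1 and from 27.7 to 34.8 CPM at week 4, with a log2 fold change of -0.39 ± 0.11 (adjusted p = 0.0053). Neither had overlapping libraries at these 2 times. Against week 0 at week 4, MRPL14 had a log2 fold change of -0.76 ± 0.15 (adjusted p = 1.7e-04) and MRPL52 of -0.56 ± 0.11 (adjusted p = 1.3e-04), which were -0.33 and -0.27 without week 0 replicates 1 and 4. The week 1 value of MRPL52 was -0.17 ± 0.11 (adjusted p = 0.19), 0.12 without those libraries (adjusted p = 0.13) and 0.19 within the tables that held gene lengths, where it was called higher (adjusted p = 0.014). At week 1 the value of MRPL14 was -0.36 ± 0.15 (adjusted p = 0.045), and 0.07 without those libraries (adjusted p = 0.41), and of 31 alternatives 22 lost that call and 3 turned its sign.

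MRPL17, the homologue of bacterial L17 in the large subunit, was the only member that rose against week 0. MRPL17 had 73.2, 59.1, 73.9, 57.4 and 54.3 CPM at week 0, 78.0 to 85.3 CPM (median 78.7) at week 1 and 73.2 to 78.7 CPM (median 75.5) at week 4. The week 1 libraries lay above all untreated ones, and those of week 4 overlapped week 0 replicate 4 alone. The log2 fold change was 0.33 ± 0.07 at week 1 and 0.25 ± 0.07 at week 4 (adjusted p = 1.5e-04 and 0.0021), and 0.48 and 0.41 without week 0 replicates 1 and 4. Within the tables without gene lengths the week 4 value was 0.13, with an adjusted p of 0.081.

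MRPS30, placed in the large subunit despite its name, dipped at week 1. MRPS30 had 18.7, 19.5, 21.4, 18.9 and 21.8 CPM at week 0, 13.2 to 15.6 CPM (median 14.5) at week 1 and 17.2 to 19.0 CPM (median 18) at week 4. Its week 1 libraries lay below all others, and its week 4 libraries overlapped week 0. The log2 fold change was -0.47 ± 0.06 at week 1 (adjusted p = 3.4e-07) and 0.32 ± 0.06 between weeks 4 and 1 (adjusted p = 1.1e-04). Against week 0 at week 4 it was -0.15 ± 0.06 (adjusted p = 0.028), a call that was lost without week 0 replicate 4, week 0 replicate 6 or week 4 replicate 1, with adjusted p of 0.061 to 0.088, within the tables without gene lengths (-0.15, adjusted p = 0.074), and with upper-quartile scaling (-0.08, adjusted p = 0.21). For MRPS30, leaving out week 0 replicates 1 and 4 gave -0.47 at week 1 and -0.15 at week 4.

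MRPS36 carries a ribosomal name but is now known as a subunit of the 2-oxoglutarate dehydrogenase complex. It had 4.92, 3.97, 5.56, 3.74 and 3.65 CPM at week 0, 2.83 to 3.41 CPM at week 1 and 2.25 to 2.90 CPM at week 4, with log2 fold changes of -0.46 ± 0.11 and -0.75 ± 0.11 (adjusted p = 8.8e-04 and 3.0e-06), or -0.25 and -0.55 without week 0 replicates 1 and 4. Within the tables that held gene lengths the week 1 value of MRPS36 was -0.32 (adjusted p = 0.09). MRPS6, the homologue of bacterial S6, shares 9.6% of its exon bases with SLC5A3 and an unnamed gene in GENCODE v29. MRPS6 had 14.6 to 22.1 CPM in the week 0 libraries and medians of 12.6 and 13 CPM at weeks 1 and 4, with log2 fold changes of -0.47 ± 0.08 and -0.45 ± 0.08 (adjusted p = 3.6e-05 and 6.2e-05), or -0.33 and -0.30 without those libraries. Both genes were lower at both times.

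**Figure D3:**
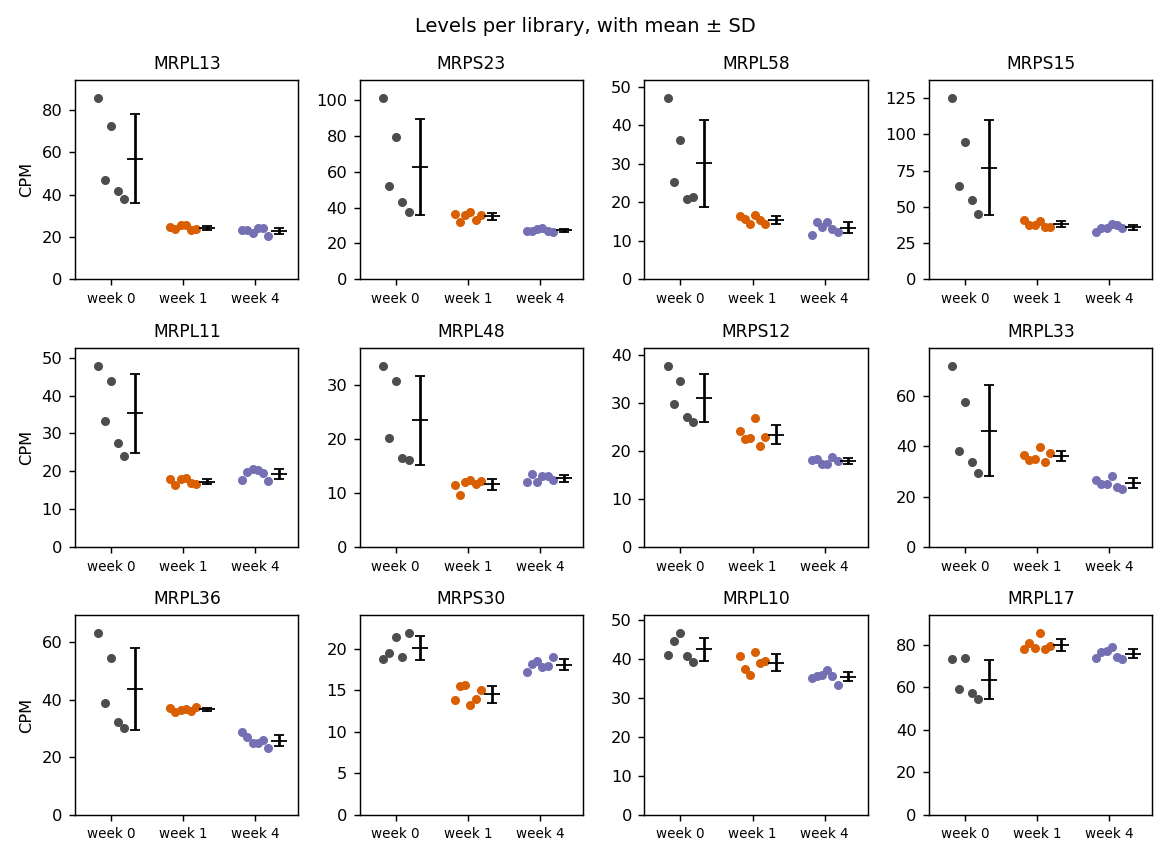
Levels of 12 members in CPM in every library (dots), with mean ± SD beside each group, on axes that start at 0. Week 4 libraries of MRPS12, MRPL33 and MRPL36 lie below their week 1 libraries, MRPS30 is lowest at week 1, and MRPL17 is higher in the week 1 libraries (78.0 to 85.3 CPM) than in any week 0 library.

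Many members share exon bases with other genes or have pseudogenes, and the sources used here do not give how reads that fit several places were counted. In GENCODE v29, 41 of the 78 members have an exon overlap with another gene, and 36 have pseudogene entries in the deposited tables. The 11 members under 5 CPM had a median of 11.3% of exon bases overlapped, beside 0% for the 67 members at or over 5 CPM. Reads shared with a near copy or an overlapping gene cannot be assigned here.

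The members' promoters were searched for 5 short motifs on both strands, in RefSeq windows from 250 bases before to 50 bases after the start of transcription (GRCh38.p14), which were found for 69 of the 78 members. The motifs were the NRF1 palindrome (nuclear respiratory factor 1; its letters are the capitals in the MRPL17 promoter printed next), CCGGAAG for the ETS family, AAGATGGC for YY1, CACGTG for the E-box and TATAAA for the TATA box, and no match overlapped that of another motif in a member promoter. An ETS match was found in 29 member promoters (42.0%), beside 17.6% of those of 12457 tested genes and 10.7% of all 27305 promoters. For YY1 the numbers were 20 member promoters (29%), beside 4.86% and 3.03%. The exact NRF1 motif was found in 1 member promoter (1.45%, beside 2.18% and 1.36%), the E-box in 6 (8.70%, beside 9.5% and 7.43%) and the TATA box in 2 (2.90%, beside 6.29% and 12%). No match says only that these letters are absent from this window, and a match is not a site of binding.

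The following promoters are shown because they carry the motif of the only member that rose (MRPL17, NRF1), those of the members that fell in steps or most in the small subunit (MRPS12, MRPS23), a typical YY1 match just after the start (MRPS27) and the highest member per kilobase (MRPL51). Each runs 5′ to 3′ along the gene, with the motif matches in capitals.
MRPL17 (chr11:6683291-6683590, minus strand): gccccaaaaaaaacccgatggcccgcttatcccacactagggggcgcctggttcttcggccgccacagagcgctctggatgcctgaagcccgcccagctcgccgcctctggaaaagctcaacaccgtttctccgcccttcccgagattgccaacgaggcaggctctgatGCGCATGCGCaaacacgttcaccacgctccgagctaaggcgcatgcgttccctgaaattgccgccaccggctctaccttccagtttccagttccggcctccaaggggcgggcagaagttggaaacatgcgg
MRPS12 (chr19:38930694-38930993, plus strand): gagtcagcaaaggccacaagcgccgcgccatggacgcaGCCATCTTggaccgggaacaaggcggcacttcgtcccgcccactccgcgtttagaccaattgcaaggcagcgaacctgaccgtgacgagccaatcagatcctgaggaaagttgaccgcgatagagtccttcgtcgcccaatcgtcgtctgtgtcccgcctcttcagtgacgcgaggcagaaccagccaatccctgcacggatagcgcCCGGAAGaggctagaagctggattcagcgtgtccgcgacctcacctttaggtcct
MRPS23 (chr17:57849995-57850294, minus strand): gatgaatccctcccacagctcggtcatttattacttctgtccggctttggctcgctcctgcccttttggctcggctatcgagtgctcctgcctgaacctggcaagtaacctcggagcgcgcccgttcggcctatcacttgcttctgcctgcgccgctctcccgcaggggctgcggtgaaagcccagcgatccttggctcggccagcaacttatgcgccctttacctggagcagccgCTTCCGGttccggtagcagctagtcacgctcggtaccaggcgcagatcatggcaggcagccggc
MRPS27 (chr5:72320191-72320490, minus strand): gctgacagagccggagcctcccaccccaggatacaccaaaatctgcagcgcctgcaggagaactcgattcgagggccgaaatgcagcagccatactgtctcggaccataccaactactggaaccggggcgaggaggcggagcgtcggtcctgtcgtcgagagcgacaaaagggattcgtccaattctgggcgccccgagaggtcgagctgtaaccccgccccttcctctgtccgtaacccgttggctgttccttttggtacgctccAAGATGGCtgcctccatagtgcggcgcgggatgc
MRPL51 (chr12:6493213-6493512, minus strand): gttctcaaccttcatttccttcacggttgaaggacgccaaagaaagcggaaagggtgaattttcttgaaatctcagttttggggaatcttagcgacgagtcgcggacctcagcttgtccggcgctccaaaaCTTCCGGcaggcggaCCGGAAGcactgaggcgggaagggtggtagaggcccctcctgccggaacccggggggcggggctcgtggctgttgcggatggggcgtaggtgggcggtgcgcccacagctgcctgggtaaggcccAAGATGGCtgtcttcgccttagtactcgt

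In MRPL17 the capitals mark the NRF1 motif, at 81 bases before the start. In MRPS12 they mark the YY1 motif read on the other strand and then the ETS motif, in MRPS23 the ETS motif on the other strand and in MRPS27 the YY1 motif. MRPL51 holds an ETS motif on each strand and then the YY1 motif. Over all member promoters, 27 of 39 ETS matches lay in the 100 bases before the start and 15 of 21 YY1 matches lay after it. The ETS and YY1 motifs were found together in 8 promoters, and 24 held none of the 5 motifs.

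**Figure D4:**
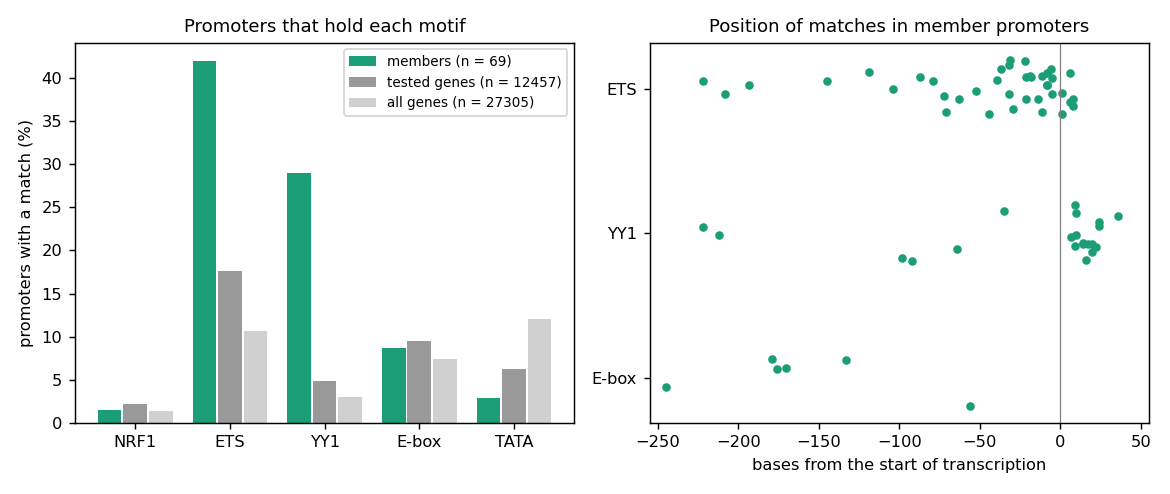
Left, the percentage of promoters with at least 1 match to each motif for the 69 members, 12457 tested genes and 27305 genes in all. Right, the position of each ETS, YY1 and E-box match in the member promoters, in bases from the start of transcription. The members' bars are the highest of the 3 for ETS (42.0%) and YY1 (29%), and most YY1 matches lie just after the start.

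Members with an ETS match had a median log2 fold change of -0.70 at week 4 against week 0 (28 genes) and those without one -0.68 (39 genes). With and without a YY1 match the medians were -0.76 (19 genes) and -0.65 (48 genes), and neither difference was tested. The genes of NRF1 and YY1 themselves changed in opposite directions. NRF1, a regulator of nuclear genes for mitochondrial proteins, averaged 18.7, 9.65 and 9.18 CPM at weeks 0, 1 and 4, with a log2 fold change of -1.03 ± 0.07 at week 4 (adjusted p = 6.1e-12). YY1 averaged 72.2, 82.3 and 88.0 CPM at weeks 0, 1 and 4, with a log2 fold change of 0.29 ± 0.05 at week 4 (adjusted p = 2.8e-05). Without week 0 replicates 1 and 4 these values were -1.09 for NRF1 and 0.20 for YY1.

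Other genes of mitochondrial translation were set beside the members. For all lists that follow, 34.0% of all tested genes were called lower and 32.9% higher at week 1. At week 4 these shares were 33.7% and 33.9%. Of 5 mitoribosome proteins with other symbols, 4 were lower and 1 higher at week 1, and 5 were lower at week 4, with median log2 fold changes of -0.31 and -0.51. CHCHD1, a small-subunit protein, had the largest decrease of these at week 4, with 16.4 CPM against 28.1 CPM at week 0 and a log2 fold change of -0.77 ± 0.10 (adjusted p = 5.8e-07), or -0.58 without week 0 replicates 1 and 4. DAP3, a GTP-binding protein of the small subunit that was chosen after its values were seen, averaged 88.1, 107.5 and 75.4 CPM at weeks 0, 1 and 4. Its log2 fold change was 0.29 at week 1, -0.22 at week 4 and -0.51 between weeks 4 and 1 (adjusted p = 7.2e-05, 9.7e-04 and 6.8e-08). Against week 0 these values were 0.39 and -0.12 without replicates 1 and 4, and DAP3 was highest at week 1.

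The lists of translation factors, assembly factors and aminoacyl-tRNA synthetases had smaller medians. Of 12 translation factors 7 (58.3%) were lower at week 1 and 10 (83.3%) at week 4, with none higher and medians of -0.32 and -0.36. Over all tested genes 34.0% and 33.7% were called lower at these times. MTRF1, a release factor, had a log2 fold change of -0.91 ± 0.10 at week 4 (adjusted p = 4.3e-08), or -0.76 without week 0 replicates 1 and 4. Of 25 assembly and ribosomal RNA modification factors 17 were lower and 2 higher at week 1, and 20 were lower and 1 higher at week 4, with medians of -0.42 and -0.45. Among these MTERF3, of the mitochondrial transcription termination factor family, had the largest decrease, with 7.87 CPM at week 4 against 18.6 CPM at week 0 and a log2 fold change of -1.24 ± 0.12 (adjusted p = 4.6e-09), or -0.97 without those libraries, while NOA1, a GTPase, rose by 0.15 ± 0.05 on the log2 scale (adjusted p = 0.017), a call that was lost without week 0 replicates 1 and 4 (0.11, adjusted p = 0.092). Of 19 mitochondrial aminoacyl-tRNA synthetases, which charge transfer RNAs, 14 were lower and 2 higher at week 1, and 13 were lower and 1 higher at week 4, with medians of -0.26 and -0.44. IARS2, the isoleucyl-tRNA synthetase, was higher at week 4, with 154 CPM against 131 CPM at week 0 and a log2 fold change of 0.23 ± 0.04 (adjusted p = 6.9e-05), or 0.19 without week 0 replicates 1 and 4.

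Of 16 genes of mitochondrial transcription and RNA handling, 12 were lower and 1 higher at week 1, and 13 were lower and 1 higher at week 4, with median log2 fold changes of -0.47 and -0.66. TFAM, which packages mitochondrial DNA and starts its transcription, averaged 34.1, 13.9 and 15.2 CPM at weeks 0, 1 and 4, with a log2 fold change of -1.16 ± 0.09 at week 4 (adjusted p = 5.3e-11). POLRMT, the mitochondrial RNA polymerase, was the higher one, with 33 CPM at week 4 against 28.5 CPM at week 0 and a log2 fold change of 0.21 ± 0.06 (adjusted p = 0.0065). Without week 0 replicates 1 and 4 the week 4 values were -1.05 for TFAM and 0.14 for POLRMT. Of 8 regulators of mitochondrial biogenesis, 5 were lower (62.5%) and 1 higher (12.5%) at each time, with medians of -0.50 and -0.59. Over all tested genes 34.0% and 33.7% were called lower at weeks 1 and 4, and 32.9% and 33.9% higher. With week 0 replicates 1 and 4 left out, the lower genes at weeks 1 and 4 numbered 3 and 5 for the mitoribosome proteins with other symbols, 7 and 11 for translation factors, and 16 and 20 for assembly factors. They then numbered 13 and 13 for the synthetases, 12 and 12 for transcription and RNA handling, and 5 and 7 for the regulators. The share of all tested genes called lower in that fit is not given here.

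For cytosolic ribosomal proteins the counts lay in both directions. Of 75 tested genes 19 were lower and 5 higher at week 1, and 5 were lower and 16 higher at week 4, with median log2 fold changes of -0.12 and 0.01. At week 1 that is 25.3% lower and 6.67% higher, beside 34.0% and 32.9% of all tested genes. At week 4 it is 6.67% lower and 21.3% higher, beside 33.7% and 33.9%. Without week 0 replicates 1 and 4, 4 were lower and 39 higher at week 1, and 2 were lower and 61 higher at week 4. The calls in this list thus depend on those 2 libraries. Leaving them out left 53 members lower at week 1 and 69 at week 4, as given above. Shares of all tested genes called in that fit are not given here.

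**Figure D5:**
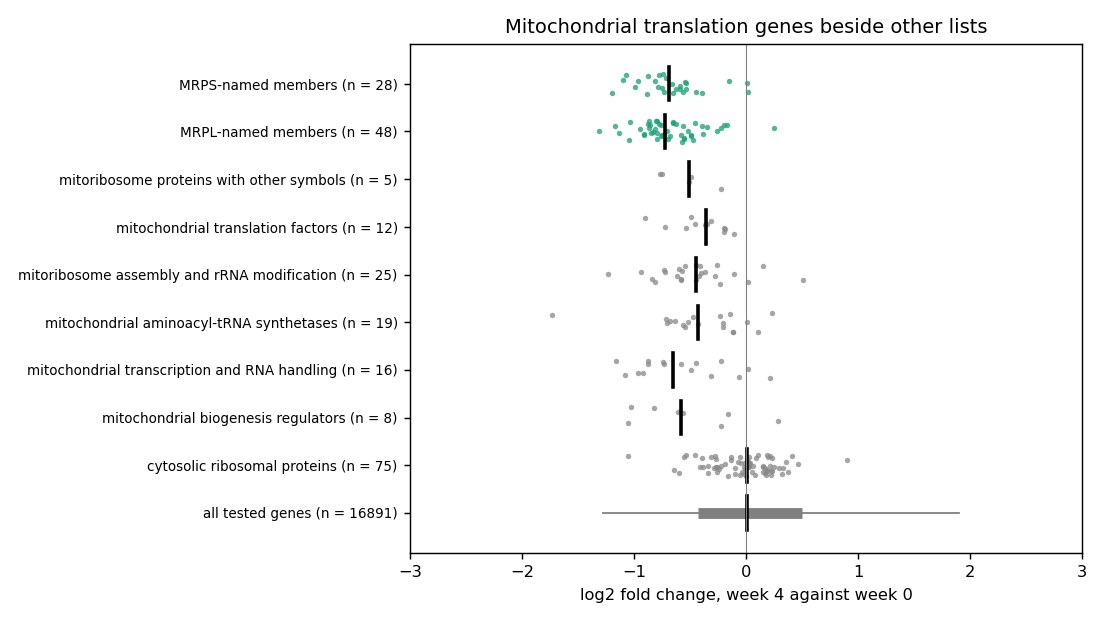
Log2 fold change at week 4 against week 0 of each gene (dots) of the members and of other lists, with the list's median as a bar, above the distribution of all 16891 tested genes (thick line, interquartile range, and thin line, 5th to 95th percentile). The medians are -0.69 for MRPS-named and -0.72 for MRPL-named members, between -0.66 and -0.36 for the other mitochondrial lists and 0.01 for cytosolic ribosomal proteins.

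Members also followed each other across libraries. With the mean log2 level of the other members over 17 libraries, the Pearson correlation was lowest for MRPL17 (-0.40), MRPS25 (-0.22), MRPS5 (-0.10) and MRPL12 (0.36), which is a description over libraries that share the 3 groups. Among all other tested genes, the 5 most like the members' mean were RAN (r = 0.996), DNAJC8 (0.994), C1QBP (0.994), PSMA4 (0.993) and CENPX (0.993). RAN, the GTPase of nuclear transport, averaged 524, 285 and 245 CPM at weeks 0, 1 and 4, and C1QBP, a protein of the mitochondrial matrix, averaged 135, 68.6 and 62.4 CPM.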

How the data were processed

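Bulk RNA-seq of 17 IMR-90 libraries was grouped by the labels' titles and treatment. Library preparation used column-purified, DNase-treated RNA and an Illumina kit, per the labels' protocols. The authors deposited raw gene counts by symbol for each library, not normalized, and gene lengths (unit other) in 4 of the deposited tables. The submitters' processing notes name HISAT2 2.0.5.2, featureCounts 1.4.6 and mm10. Since mm10 is a mouse assembly and the symbols are human, it is not known which assembly the reads were aligned to, and coordinates are printed for RefSeq promoters alone. The sources used here give neither the annotation nor how strand and multiply mapped reads were handled.

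An entry with no gene name (0.221% to 0.289% of counts) was left out. The edgeR package (4.0.16, R 4.3.3) was used for the tests. Of 41040 genes, 16891 passed filterByExpr by group, libraries were scaled by TMM (factors 0.938 to 1.11), and all 17 entered 1 quasi-likelihood fit with group means. Each of the 3 comparisons was adjusted by Benjamini-Hochberg over all tested genes, and genes with an adjusted p below 0.05 were called. The common biological coefficient of variation was 11.7%. Standard errors are the log2 fold change divided by the root of the F statistic. Levels are CPM on TMM-scaled library sizes. The least different of 40 pairs of libraries within groups had a chi-square per gene of 7.62, so none was counted as a repeat. Count totals limit the precision of low genes, and intervals cover counting error only where a floor of 3 counts is given. The method was also run on simulated counts with known changes and the same spread in every group. That run cannot vouch for comparisons with the more uneven week 0 libraries.

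The members, the gene lists and the tests were chosen with earlier results of these data known. Named members were a fixed set, the 5 that rose and the 5 that fell most in each comparison (mean CPM 5 or more, libraries of both groups apart), the largest rise and fall per other list at week 4 against week 0, and the 5 genes most like the members' mean. A gene that this rule names is not reported here. Others were named for being the exceptions in a count or the highest or lowest level. The alternatives comprised DESeq2 1.42.0, limma-voom (limma 3.58.1), scaling by RLE or upper quartile, filters removed or set stricter (5 CPM in 5 libraries), a block for the replicate number, a smooth length correction, fits of the compared groups alone, either class of tables alone, and libraries left out. The class of tables with gene lengths alone, and leaving out week 0 replicates 1 and 4 together with the length correction, were chosen after seeing the data. Promoters came from RefSeq (GRCh38.p14) and exon overlaps from GENCODE v29.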

Additional observations from a re-analysis of the deposited data

Results flagged for a closer look

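In 108 groups of libraries, 4 held a library at one end that stood far from the others (Dixon's test at the 95% level), where chance gives about 1 in 20 groups. MRPL17 was highest in week 1 replicate 4, at 85.3 CPM, where the other week 1 libraries held 78.0 to 80.6 CPM. MRPL48 was lowest in week 1 replicate 2, at 9.64 CPM, where the others held 11.5 to 12.5 CPM. The summed level of all members was lowest in week 4 replicate 6, at 1640.6 CPM, where the others held 1715 to 1746 CPM. Of that sum, the MRPL-named members stood at 1124.7 CPM in the same library, where the others held 1184 to 1207 CPM.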

How the results depend on the processing

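Against week 0, counts of lower members kept within 1.5 times the reported ones under every alternative run, from 46 to 70 at week 1 (reported 67) and from 64 to 72 at week 4 (reported 72), and the medians of members kept their sign. With each of 17 libraries left out in turn, lower members numbered 61 to 70 at week 1, 70 to 72 at week 4 and 12 to 26 between weeks 4 and 1 (reported 23), and higher members between weeks 4 and 1 numbered 1 to 2 (2 without week 0 replicate 4). Lower members between weeks 4 and 1 numbered 45 with only the groups compared and 42 without week 0 replicates 1 and 4. Higher members in that comparison (reported 1) numbered 3 with only the groups compared, 3 with the length correction, 2 without week 0 replicates 1 and 4, and 4 when the length correction was added to that. Higher members at week 1 (reported 1) numbered 4 in the tables with gene lengths and 2 with the length correction and week 0 replicates 1 and 4 left out, and at week 4 there was 0 (reported 1) in the tables without gene lengths. With edgeR that leaves MRPL17 at a log2 fold change of 0.13 (adjusted p = 0.081). The cause was not tested.

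Of the members named by rule, 4 turned sign at week 1. MRPL33 stood at 0.09 without week 0 replicates 1 and 4, 0.18 in the tables with gene lengths and 0.12 with those replicates out and the length correction. MRPL14 stood at 0.07, 0.14 and 0.09 under the same settings. MRPL36 and MRPL52, not called at week 1, each stood at 0.12 without those replicates (not called). MRPL36 was called higher at 0.23 in the tables with gene lengths and 0.15 with those replicates out and the length correction, and MRPL52 at 0.19 in the tables with gene lengths, as was MRPL33 at 0.18. The cause was not tested.

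With the replicate number as a block, 64, 72 and 24 members were lower in the 3 comparisons, and with the length correction added 62, 72 and 17, with 2 higher between weeks 4 and 1. Libraries with the same number did not deviate together (correlations of -0.04 to 0.07 over 16 pairs), so the numbers were not read as pairs.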
